A study of Mus musculus with 2 samples.

Results

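The methionine cycle and one-carbon enzymes described here were 10 genes chosen by name, *Bhmt*, *Bhmt2*, *Gnmt*, *Mat1a*, *Ahcy*, *Cbs*, *Cth*, *Pemt*, *Shmt1* and *Inmt*. These genes, and the gene lists used below, were chosen with earlier results of these data known. Their counts beside those of all listed genes are therefore descriptions only. All 10 were found by symbol in the deposited expression table, which lists 8551 genes. The table compares the liver of 9-week-old male wild type mice (normal) with that of 9-week-old male db/db mice (diabetic), with a C57BL/6 background given for both. The db/db mouse lacks a working leptin receptor, overeats, and becomes obese and hyperglycaemic. Chow was freely available, and the livers were taken about 3 h into the light phase. Each group was sequenced as 1 library. The mice came from 2 suppliers and each group held several animals, but which supplier gave which group, and from how many livers each library was made, is not given in the sources used here. No difference below therefore has a replicate check.

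The methionine cycle turns methionine into S-adenosylmethionine, the methyl donor of most methylation reactions of the cell. Each methyl transfer leaves S-adenosylhomocysteine, which is split into homocysteine and adenosine. Homocysteine is either given a methyl group again, from betaine or from folate, or passed through cystathionine to cysteine, taurine and glutathione. The liver carries most of this flux, and the adult hepatocyte uses a methionine adenosyltransferase and a glycine methyltransferase that are scarce in other tissues.

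The libraries were made by cutting the cDNA with DpnII, an enzyme that cuts at the letters GATC, and sequencing short tags from the cut sites. To show what such tags look like, the GATC site nearest to the end of the transcript was taken for each gene with the 16 bases after it, from the GENCODE transcript that matches a curated RefSeq record. The site is in capitals. Which sites and how many bases the study's tags came from is not given in the sources used here.

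Bhmt: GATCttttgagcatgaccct
Bhmt2: GATCagagcaagggctagac
Gnmt: GATCgaccaccgcaactacg
Mat1a: GATCctgatgctgtgtgtga
Ahcy: GATCaatttactgaacccat
Cbs: GATCtccctgttctggactc
Cth: GATCatgttgtcttttttct
Pemt: GATCtttggaaagctggact
Shmt1: GATCtcctcgctcatgcatg
Inmt: GATCattgtcactgactaca

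These sites lay in the 3′ untranslated region of 7 genes and in the coding sequence of 3, *Bhmt2*, *Gnmt* and *Inmt*. The 20 letters of 9 genes occurred in the annotated transcripts of no other gene. The exception was *Bhmt* (GRCm38, minus strand, chr13:93617027-93617046, exon 8), whose tag was also found in *Gm5096*, a gene not analysed here. Tags of these 2 genes cannot be told apart by this site. The paralogs *Bhmt* and *Bhmt2* could be, since their tags differed at 15 of the 20 positions. The *Bhmt2* tag crossed from exon 7 to exon 8 (GRCm38, minus strand, chr13:93657137-93662313, intron included). The number of GATC sites ranged from 1 in the *Gnmt* transcript to 13 in those of *Mat1a* and *Cbs*.

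Levels are in the authors' TPM, the tags of a gene scaled to the clean tags of its library (transcripts per 1000000). Below, normal liver and diabetic liver stand for the single library of each group. The values rose in equal steps of 1 read, which gave a depth of 10278530 clean tags in normal liver and 13508232 in diabetic liver. Folds compare diabetic with normal TPM, and a gene was called higher or lower at 1.5-fold or more, the fold threshold of the study. The 95% Clopper-Pearson intervals use those reads and speak of counting error alone, since PCR copies of a tag carried no molecular identifier and the spread between mice was not measured. All listed genes together leaned towards the diabetic library, with a median log2 ratio of 0.25. The split moved with the scaling between the libraries, so the calls are also given relative to that lean, by trimmed mean of M values (TMM) scaling, which lowered every log2 ratio by 0.25.

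Of the 10 enzyme genes, 6 were at least 1.5-fold higher in the diabetic library and none was at least 1.5-fold lower. Among all listed genes 34.4% were called higher and 15.3% lower. The 6 were *Cth*, *Gnmt*, *Mat1a*, *Inmt*, *Bhmt2* and *Bhmt*, between 6.14-fold and 1.77-fold higher. *Ahcy*, *Shmt1* and *Pemt* differed by less than 1.5-fold. *Cbs* was the single gene with the lower value in the diabetic library, 1.49-fold lower and just short of the threshold. The median log2 ratio of the 10 genes was 1.13, beside 0.25 for all listed genes. After TMM scaling, 5 genes were higher, since *Bhmt* missed the threshold at 1.48-fold, and 1 gene, *Cbs*, was lower, against 24.0% and 23.7% of all listed genes. On this scale *Cth* was 5.15-fold, *Gnmt* 3.58-fold, *Mat1a* 2.60-fold, *Inmt* 2.54-fold and *Bhmt2* 2.29-fold higher. *Ahcy* and *Shmt1* were then 1.16-fold and 1.07-fold higher, and *Cbs* was 1.78-fold lower.

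**Figure D1:**
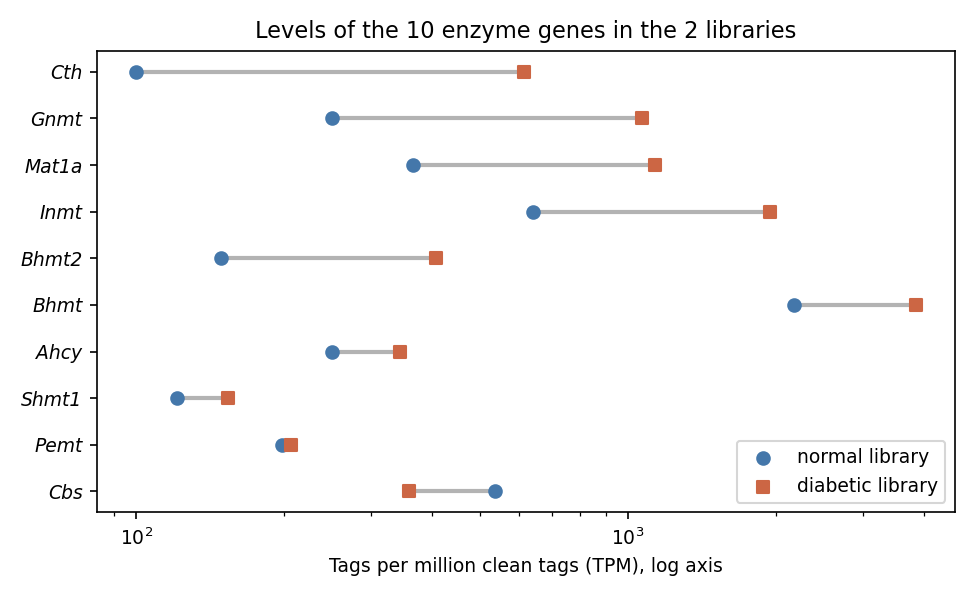
Level of each enzyme gene in TPM on a log axis, with a circle for the normal library and a square for the diabetic library, 1 library each. The squares lie to the right of the circles for 9 genes, farthest for *Cth* (99.8 to 613 TPM), and to the left for *Cbs* alone (536 to 359 TPM).

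*Bhmt* and *Bhmt2* encode the 2 enzymes that return a methyl group to homocysteine without folate, *Bhmt* from betaine and *Bhmt2* from S-methylmethionine. *Bhmt* (Entrez 12116) measured 2180.4 TPM in normal liver, from 22411 reads, and 3849 TPM in diabetic liver, from 51993 reads. Its level was 1.77-fold higher (95% interval, 1.74 to 1.79) in the diabetic library. *Bhmt2* (Entrez 64918), the neighbouring paralog on chromosome 13, was at 149 TPM and 406 TPM in the same order, from 1530 and 5488 reads. This was 2.73-fold higher (95% interval, 2.58 to 2.89). Both genes were thus higher in the diabetic library, and *Bhmt2* by the larger factor. The log2 ratio of *Bhmt2* exceeded that of *Bhmt* by 0.63 (95% interval, 0.54 to 0.71), a comparison of 2 genes within the same libraries that no scaling between libraries can change.

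*Mat1a* encodes the catalytic subunit of the liver forms of methionine adenosyltransferase, which make S-adenosylmethionine. *Mat1a* (Entrez 11720) measured 365 TPM in normal liver (3754 reads) and 1134 TPM in diabetic liver (15312 reads). The diabetic value was 3.10-fold higher (95% interval, 2.99 to 3.22). *Mat2a*, which encodes the isoenzyme found in most tissues and in growing hepatocytes, had its lower value in diabetic liver. It was at 195 TPM in normal liver and 136 TPM in diabetic liver, 1.43-fold lower, short of the threshold and 1.71-fold lower after TMM scaling. The log2 ratio of *Mat1a* exceeded that of *Mat2a* by 2.15 (95% interval, 2.05 to 2.26), so that the relation of *Mat1a* tags to *Mat2a* tags was 4.45 times as high in the diabetic library.

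The methyltransferases of the set, *Gnmt*, *Inmt* and *Pemt*, pass the methyl group of S-adenosylmethionine to different acceptors, and their ratios were unequal. *Gnmt* encodes glycine N-methyltransferase, an abundant liver enzyme that makes sarcosine and is regarded as a sink for excess methyl groups. *Gnmt* (Entrez 14711) measured 250.3 TPM in normal liver, from 2573 reads, and 1068 TPM in diabetic liver, from 14421 reads. It was 4.26-fold higher (95% interval, 4.09 to 4.45) in the diabetic library.

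*Inmt* encodes indolethylamine N-methyltransferase, which methylates tryptamine and other small amines and also selenium and sulfur compounds. *Inmt* (Entrez 21743) measured 642 TPM in normal liver (6598 reads) and 1944 TPM in diabetic liver (26256 reads), 3.03-fold higher (95% interval, 2.95 to 3.11). *Pemt* encodes phosphatidylethanolamine N-methyltransferase, which makes phosphatidylcholine from phosphatidylethanolamine. *Pemt* (Entrez 18618) measured 198 TPM in normal liver (2032 reads) and 207 TPM in diabetic liver (2791 reads). Its log2 ratio was 0.06, with an interval on both sides of 0 (95% interval, -0.02 to 0.15). Under each of 4 other scalings the log2 ratio of *Pemt* was below 0, between -0.24 and -0.19. *Pemt* thus stood apart from *Gnmt* and *Inmt*, with a log2 ratio 2.03 under that of *Gnmt* (95% interval of the difference, 1.93 to 2.13). Among all listed genes *Pemt* was at percentile 41.1.

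*Ahcy* encodes S-adenosylhomocysteine hydrolase, which clears the product that methyltransferases leave and that inhibits them. *Ahcy* (Entrez 269378) measured 249.8 TPM in normal liver (2568 reads) and 344 TPM in diabetic liver (4650 reads). The value was 1.38-fold higher (95% interval, 1.31 to 1.45), below the threshold. In normal liver *Ahcy* and *Gnmt* had nearly the same number of tags, 2568 and 2573. In diabetic liver they had 4650 and 14421. The log2 ratio of *Gnmt* exceeded that of *Ahcy* by 1.63 (95% interval, 1.54 to 1.72), and that of *Mat1a* exceeded it by 1.17 (95% interval, 1.09 to 1.26).

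*Cbs* and *Cth* encode the consecutive enzymes of transsulfuration, the route from homocysteine to cysteine, and they differed most within the set. *Cbs*, for cystathionine beta-synthase, which joins homocysteine with serine, measured 536 TPM in normal liver (5511 reads) and 359 TPM in diabetic liver (4850 reads) (Entrez 12411). This was 1.49-fold lower in the diabetic library (95% interval, 1.44 to 1.55), and the interval held the threshold of 1.5. *Cth*, for cystathionine gamma-lyase, which splits cystathionine to give cysteine, measured 99.8 TPM in normal liver (1026 reads) and 613 TPM in diabetic liver (8282 reads) (Entrez 107869). *Cth* was 6.14-fold higher (95% interval, 5.76 to 6.56), the largest ratio of the 10 genes, and stood at percentile 98.0 of the log2 ratios of all listed genes. *Cbs* stood at percentile 15.4. In normal liver *Cbs* had 5.37 tags for each tag of *Cth*, whereas in diabetic liver *Cth* had 1.71 for each of *Cbs*, each as a ratio of TPM. Their log2 ratios differed by 3.20 (95% interval, 3.09 to 3.31).

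*Shmt1* encodes the cytosolic serine hydroxymethyltransferase, which moves a one-carbon unit between serine and folate. *Shmt1* (Entrez 20425) measured 121 TPM in normal liver (1242 reads) and 154 TPM in diabetic liver (2078 reads), 1.27-fold higher (95% interval, 1.19 to 1.37) and short of the threshold. *Shmt2*, the mitochondrial isoenzyme, was at 34.2 TPM and 43.5 TPM in the same order, also 1.27-fold higher. The difference of their log2 ratios was 0.00089, with a 95% interval of -0.22 to 0.22. *Shmt1* was at percentile 54.7 of all listed genes, close to the middle.

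**Figure D2:**
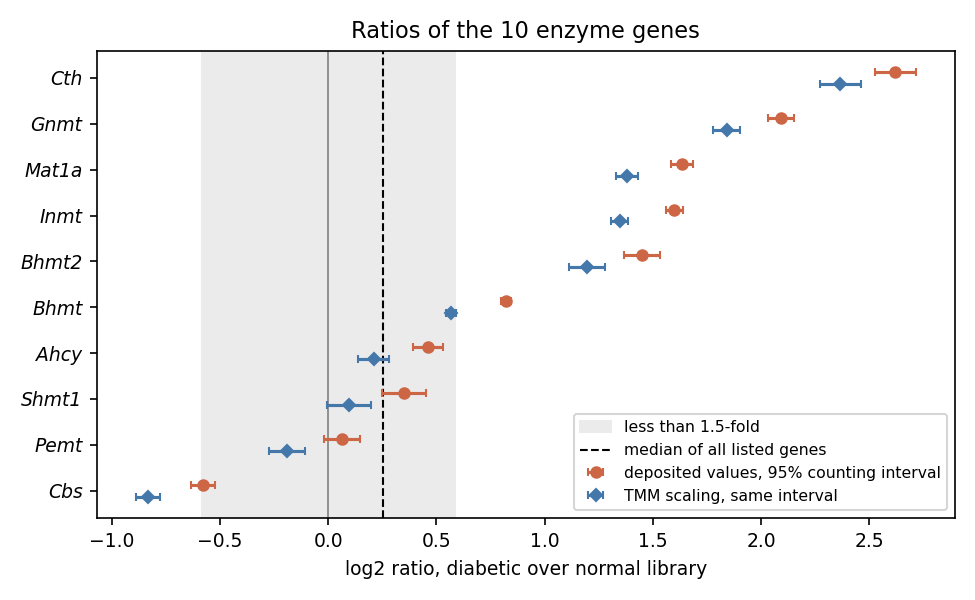
Log2 ratio of each enzyme gene, diabetic over normal library, as deposited (circles) and after TMM scaling (diamonds), with 95% intervals for counting error. The grey band marks less than 1.5-fold and the dashed line the median of all listed genes at 0.25. *Cth*, *Gnmt*, *Mat1a*, *Inmt* and *Bhmt2* lie right of the band on both scales.

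Ordered by ratio, the genes ran from *Cth* through *Gnmt*, *Mat1a*, *Inmt*, *Bhmt2*, *Bhmt*, *Ahcy*, *Shmt1* and *Pemt* to *Cbs*. Of the neighbours in this order, *Mat1a* and *Inmt* did not differ beyond counting error (difference of log2 ratios 0.04, 95% interval -0.03 to 0.10). The same held for *Ahcy* and *Shmt1* (difference 0.11, 95% interval -0.01 to 0.24). Each other pair of neighbours had an interval above 0, the narrowest gap being that of 0.15 between *Inmt* and *Bhmt2* (95% interval, 0.06 to 0.24). The genes were sorted by these same ratios, so every difference was above 0 by construction. The intervals hold counting error alone, are not adjusted for the sorting, and so do not establish the order for other mice.

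Together the 10 genes took 0.479% of all clean tags in normal liver (95% Wilson interval, 0.475% to 0.483%) and 1.01% in diabetic liver (95% Wilson interval, 1.00% to 1.01%). Relative to the tags of listed genes alone, the shares were 1.29% and 2.27%. Within the set, *Bhmt* gave the most tags in both libraries, with 45.5% of the tags of the 10 genes in normal and 38.2% in diabetic liver. The share of *Cbs* went from 11.2% to 3.56%, and that of *Pemt* from 4.13% to 2.05%. *Gnmt* went from 5.22% to 10.6%, *Inmt* from 13.4% to 19.3%, and *Cth* from 2.08% to 6.08%. These shares compare tags, which also depend on the cut sites of each transcript, and not molecules.

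**Figure D3:**
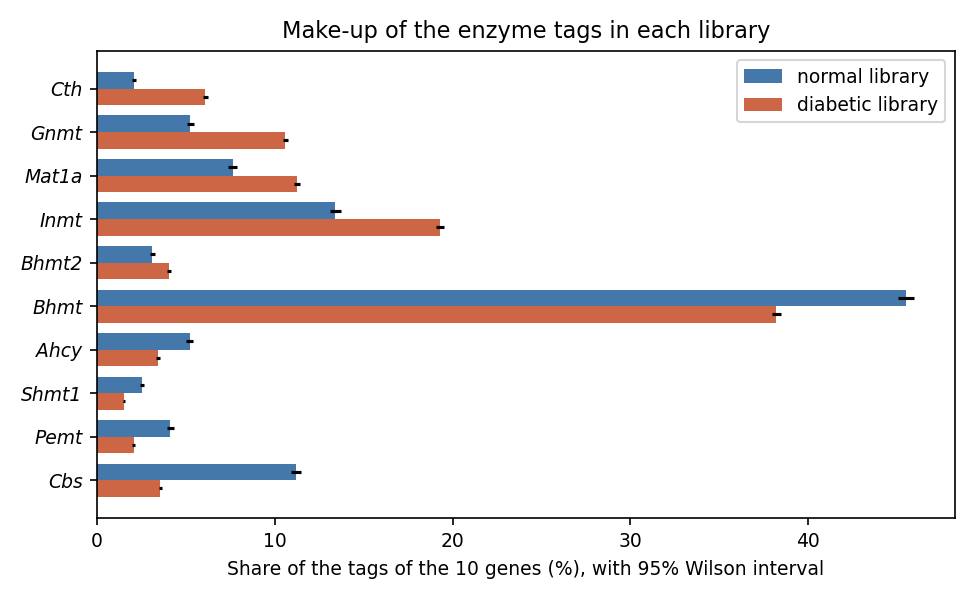
Share of each gene in the tags of the 10 enzyme genes, in percent, with 95% Wilson intervals, in the normal and the diabetic library. *Bhmt* has the longest bar in both libraries (45.5% and 38.2%), the *Cbs* bar is shorter in the diabetic library (11.2% and 3.56%), and the *Gnmt* bar is longer there (5.22% and 10.6%).

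An exact binomial test was also applied to the reads, adjusted over all 8551 genes by Benjamini and Hochberg's method. It tests 2 libraries rather than conditions, and the study's own significance method was not repeated. The same 6 genes met the study's thresholds, a fold of at least 1.5 with a false discovery rate (FDR) under 0.001. The FDR limit could hardly remove an enzyme gene past 1.5-fold, since each had at least 1026 reads in either library. By this rule 22.9% of all listed genes were higher and 8.19% lower. Among all listed genes, many with fewer reads, the limit cut those called higher from 2941 to 1955. These shares are therefore not a like comparison for the enzyme genes. The smallest called difference, that of *Bhmt*, rested on the most reads. *Ahcy*, *Shmt1* and *Cbs* had an FDR under 0.001 without the fold, and *Pemt* had neither, with an FDR of 0.19 in this exact test.

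Genes of pathways next to the cycle, not all of them enzymes, were taken from 9 lists of 74 genes in all. Of the 74 genes, 52 were in the table. Of these, 29 were at least 1.5-fold higher and 3 at least 1.5-fold lower in the diabetic library, with a median log2 ratio of 0.77. These were 55.8% and 5.77% of them, beside the 34.4% and 15.3% of all listed genes. After TMM scaling the counts were 23 and 5, as *Chdh*, *As3mt*, *Pcmt1*, *Adk*, *Gldc* and *Mut* were no longer 1.5-fold higher, and *Mat2a* and *Coq5* became lower. With an FDR under 0.001 asked as well, 24 were higher and 3 lower, and *Mtap*, *Odc1* and *Mut* were among those no longer called. *Coq5* and these last genes were named after their values were seen. Of choline and betaine oxidation, the route that makes the betaine for *Bhmt* and then burns the dimethylglycine and sarcosine that *Bhmt* and *Gnmt* release, 4 of 5 genes were higher. These were *Chdh* (1.71-fold), *Aldh7a1* (2.22-fold), *Dmgdh* (2.40-fold) and *Sardh* (2.47-fold), while *Pipox*, the remaining gene, was 1.40-fold higher, short of the threshold. *Dmgdh*, which oxidises dimethylglycine, was at 365 TPM in normal liver and 878 TPM in diabetic liver.

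Other methyltransferases that use S-adenosylmethionine were split, with 5 of 10 higher and 1 lower, beside 34.4% and 15.3% of all listed genes. After TMM scaling 3 were higher and 2 lower, near the 24.0% and 23.7% of all listed genes. *Nnmt*, which methylates nicotinamide, was 4.15-fold higher, at 80.7 TPM in normal liver and 335 TPM in diabetic liver, and *Hnmt*, *As3mt* and *Pcmt1* were 2.40-fold, 1.69-fold and 1.72-fold higher. The log2 ratio of *Inmt* was lower than that of *Nnmt* by a difference of -0.46 (95% interval, -0.57 to -0.34). *Comt1*, the symbol the table gives for catechol O-methyltransferase, was 4.50-fold lower, at 1975 TPM and 439 TPM in the same order.

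Next to *Ahcy*, 2 of 3 genes on S-adenosylhomocysteine and adenosine were higher, *Ahcyl1* (1.85-fold) and the adenosine kinase gene *Adk* (1.62-fold). After TMM scaling 1 of the 3 was higher, as *Adk* was then 1.36-fold higher. The shares of all listed genes called higher were 34.4% as deposited and 24.0% after TMM scaling. Downstream of *Cth*, 6 of 9 genes of cysteine, sulfide and glutathione metabolism were higher and 1 was lower on both scales. As deposited, 34.4% of all listed genes were higher and 15.3% lower. *Gclc*, which encodes the catalytic subunit of the first enzyme of glutathione synthesis, was 2.45-fold higher, *Gss* 1.86-fold, *Suox* 2.47-fold, *Ethe1* 2.22-fold and *Sqrdl* 1.95-fold. *Mpst*, for mercaptopyruvate sulfurtransferase, was 4.22-fold lower. *Cdo1*, for cysteine dioxygenase, which commits cysteine to taurine and sulfate, was at 580 TPM and 634 TPM, 1.09-fold higher and below 1-fold after TMM scaling at 0.917-fold.

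Around *Shmt1*, 5 of 11 folate genes were higher and 1 was lower, 45.5% and 9.09%. As deposited, this was not far from the 34.4% and 15.3% of all listed genes. After TMM scaling the counts were again 5 and 1, beside 24.0% and 23.7% of all listed genes. *Aldh1l1*, for the cytosolic formyltetrahydrofolate dehydrogenase, was 2.35-fold higher at 336 TPM and 792 TPM, *Ggh* was 2.36-fold higher, and *Folr2* was 2.48-fold lower. *Mthfd1l*, named after its values were seen, had 0 reads in normal liver, which allows up to 0.292 TPM, and 45 reads in diabetic liver, where its 3.33 TPM was 11.4 times that limit, or 9.58 times after TMM scaling. The 95% interval of its ratio began at 8.91-fold. In the remaining lists, 2 of 3 genes of glycine cleavage and serine synthesis were higher (*Gldc* 1.74-fold, *Dld* 1.90-fold), as were 3 of 5 of polyamines and methylthioadenosine salvage (*Adi1* 2.02-fold) and 2 of 4 of cobalamin handling (*Mmachc* 2.07-fold). With an FDR under 0.001 asked as well, 2 of the 3, 1 of the 5 and 1 of the 4 were higher. After TMM scaling the counts were 1, 3 and 1 in the same order, beside 24.0% of all listed genes. These lists hold between 3 and 5 listed genes each, beside the 34.4% of all listed genes called higher. The most abundant of the cobalamin genes, *Mmadhc*, was 1.13-fold higher, short of the threshold. Of methionine and S-adenosylmethionine synthesis, *Mat2a* and *Mat2b* were in the table and neither passed the threshold. *Mtr* and *Mtrr*, for methionine synthase and its reductase, were not analysed here, so *Bhmt* was not set against *Mtr*.

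**Figure D4:**
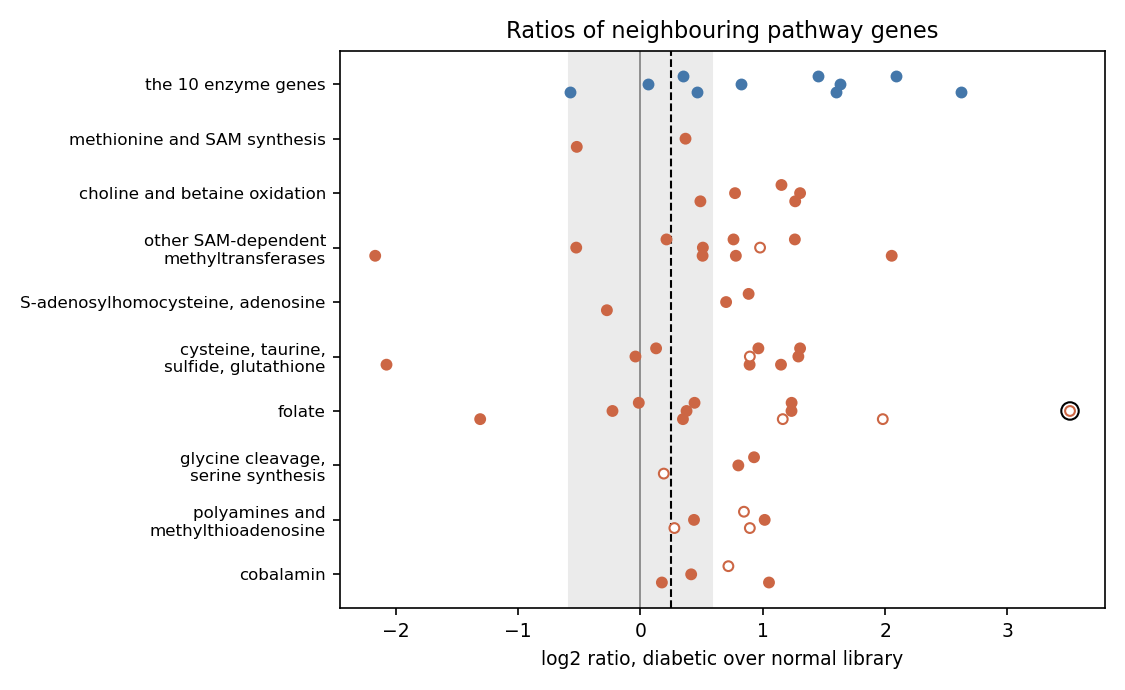
Log2 ratio of each listed gene of the 9 neighbouring lists and of the 10 enzyme genes, diabetic over normal library. Filled points have a mean of at least 10 TPM, open points less, the ringed point is *Mthfd1l* set against 3 reads, the grey band marks less than 1.5-fold and the dashed line the median of all listed genes at 0.25. Choline and betaine oxidation and polyamine and methylthioadenosine salvage lie wholly right of the dashed line, while *Comt1*, *Mpst* and *Folr2* lie far left.

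Markers of the cells of the liver were read in the same way, beside the 34.4% higher and 15.3% lower of all listed genes, and the single markers given here were named after their values were seen. All 6 hepatocyte markers were present, with 1 higher and 2 lower on both scales. *Alb* had 6801 TPM in normal and 6912 TPM in diabetic liver, whereas *Apob* was 5.46-fold lower (804 and 147 TPM), *Hnf4a* 2.10-fold lower and *Cps1* 2.43-fold higher. Of the pericentral hepatocyte markers 4 of 6 were higher and none lower, and after TMM scaling 3 were higher and 1, *Cyp1a2*, was 1.66-fold lower. They summed to 7100 TPM in normal and 9757 TPM in diabetic liver, and without *Cyp2e1*, the most abundant, to 519 TPM and 1940 TPM. Most of the latter sums was *Oat*, at 338 TPM and 1785 TPM, whereas *Cyp1a2* was at 163 TPM and 117 TPM. *Rhbg*, *Slc1a2* and *Axin2* were higher, at 17.5 TPM, 15.9 TPM and 4.74 TPM in diabetic liver. Periportal markers, with 3 of 6 higher and 1 lower on both scales, summed to 1798 TPM and 3798 TPM, and to 1130 TPM and 1751 TPM without *Pck1*. The higher ones were *Pck1*, *Sds* and *Gls2*. The lower one was *Cdh1*, 25.1-fold lower at 24.1 TPM and 0.96 TPM. *Cyp2f2* was 1.24-fold lower and *Hal* 1.21-fold higher, both short of the threshold.

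Of 7 macrophage markers 1 was higher and 4 were lower, and after TMM scaling none was higher and 5 were lower. Their sums of 262 TPM and 131 TPM differed mostly through *C1qa*, at 176 TPM and 50.7 TPM, and the other 6 markers summed to 85.3 TPM and 80.0 TPM. These 6 went different ways. *C1qb*, of the same complement complex, was 1.52-fold higher, at 38.1 TPM and 57.8 TPM. *C1qc*, *Csf1r* and *Emr1* were 3.49-fold, 2.14-fold and 2.05-fold lower. *Clec4f* and *Cd68* were lower by less than 1.5-fold, and *Marco* and *Vsig4* were not analysed here. Endothelial markers, 2 higher and 1 lower of 6, or 2 and 2 after TMM scaling, summed to 100.3 TPM and 91.4 TPM. Without *Clec4g*, the most abundant, their sums lay the other way, at 52.6 TPM and 60.7 TPM. Of 4 stellate cell markers 1 was lower on both scales, with sums of 104 TPM and 139 TPM. Of 3 cholangiocyte markers 1 was higher on both scales, *Spp1*, at 57.2 TPM and 103 TPM, and the other 2, *Krt7* and *Epcam*, summed to 4.28 TPM and 4.22 TPM. No listed marker was at 0 in either library. The part of these shifts in the ratios of the enzyme genes was not tested, and in whole liver a smaller number of cells of a type cannot be told apart from less RNA per cell.

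Promoter sequences were found for 8 of the 10 genes in a RefSeq table of the build GRCm38.p6, not for *Mat1a* and *Cth*. The 250 bases before the start were searched on both strands for AGGTCA, the hexamer core that many nuclear receptors bind. It was found in *Bhmt*, *Gnmt* and *Ahcy*, and in 14.0% of all promoter windows of the table. *Bhmt* held 3 matches, which 0.131% of all windows reached or passed. The 140 bases before its start are shown for that reason, read on the minus strand at chr13:93637759-93637898, with the 2 matches inside them in capitals. A match describes the letters of this window and no binding was measured.

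Bhmt: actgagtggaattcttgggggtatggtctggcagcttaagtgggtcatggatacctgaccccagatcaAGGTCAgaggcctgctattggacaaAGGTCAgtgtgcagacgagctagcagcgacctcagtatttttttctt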

How the data were processed

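Liver RNA of 1 normal and 1 diabetic library was measured by tag sequencing. The authors took poly(A) RNA, cut its cDNA with DpnII, sequenced on an Illumina instrument, removed adaptors, compared clean tags with RefSeq and scaled each gene to what they call TPM. The deposited values are RPM values, tags scaled to 1000000 clean tags, with 0.01 in place of 0 and no gene with a mean under 1 (lowest mean 1.005). The submitters' processing notes name the build mm9. The aligner is not given in the sources used here.

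The size of 1 step of the values gave the reads, and 8513 of 8513 values above the placeholder in the normal library and 8536 of 8537 in the diabetic library were whole reads within 0.005 TPM. The unit of the values was taken as RPM, so the test on these reads is an alternative, and folds of the deposited values are the main result. Differences of log2 ratios between genes carry normal intervals from the 4 read counts. Other scalings were the sum of listed genes, TMM (trimming 30% of ratios and 5% of abundances), the median ratio of genes at 10 TPM or more, and the 75th percentile. A gene with 3 reads or fewer in 1 library was given as a bound against 3 reads. The members and lists were chosen with earlier results of these data known. Named are all members, list genes past 1.5-fold with a mean of at least 10 TPM, partners of the compared pairs, and the most abundant gene of each list. *Pipox*, *Mat2b*, *Mthfd1l*, *Coq5*, *Mtap*, *Odc1*, *Mut* and the markers fall outside this rule and were named after their values were seen. The recovery of reads and the exact binomial test were checked on simulated reads. Computation used scipy 1.17.1 and numpy 2.4.6 under Python 3.11.15, with pandas 2.3.3 for tables and matplotlib 3.10.9 for figures.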

Additional observations from a re-analysis of the deposited data

How the results depend on the processing

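The 4 scalings tried between the libraries (TMM, sum of listed genes, upper quartile, median ratio) brought every log2 ratio down by between 0.25 and 0.31. Under each of them 1 enzyme gene, *Cbs*, was at least 1.5-fold lower, against 0 for the deposited values, and 5 were higher, against 6. The median log2 ratio of the 10 genes was then 0.87 for the sum of listed genes, 0.88 for TMM, 0.83 for the median ratio and 0.87 for the upper quartile, against 1.13. Among the genes of the 9 lists, 5 were lower under each scaling, against 3. A fold threshold of 2 left 15 list genes higher, against 29. Of 70 log2 ratios of the enzyme genes, the 40 under the 4 scalings all moved beyond their counting interval. The 30 under pseudocounts of 0.1 and 1 TPM and a minimum mean of 5 TPM stayed within it. Those settings could hardly move these genes, whose lowest value was 99.8 TPM. Under the scalings 4 ratios, those of *Pemt*, went from above 0 to below 0. No setting changed the direction of a called gene. With 1 library per group no replicate could be left out. No paired analysis was possible because each group has 1 library. Depth limited genes with few reads, since a gene without reads may be at up to 0.292 TPM in the normal and 0.222 TPM in the diabetic library.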
